A study of Mus musculus with 12 samples.

Results

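The genes of the Slc25a family encode the mitochondrial solute carriers, and 39 of them were measured among the 26989 genes that had an array probe set of their own. They were taken by name alone: every gene whose symbol begins with Slc25a and whose probe set carries no second symbol, pseudogenes left out. Each of the 39 had 1 such probe set. A further 9 family symbols on the list used here were not analysed here. Hearts came from male C57BL/6J mice aged 10 weeks, either wild type or ADAM12 knockout, and were collected 2 weeks after a sham operation or after transverse aortic constriction (TAC). TAC narrows the aorta, and the left ventricle then has to pump against a higher pressure. The 4 groups (wild type sham, wild type TAC, knockout sham, knockout TAC) held 3 biological replicates each, with 1 Clariom D array per replicate. The labels give no further detail of the knockout allele and do not say which part of the heart was taken.

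The inner mitochondrial membrane is closed to most metabolites, and SLC25 carriers are the proteins that let specific ones through. Most of them exchange one solute for another, such as ADP for ATP, acylcarnitine for carnitine, or aspartate for glutamate, and so connect fuel oxidation in the matrix with the rest of the cell. Heart muscle draws nearly all of its ATP from mitochondria and burns mostly fatty acids, which makes the acylcarnitine, adenine nucleotide and phosphate carriers and those of the malate-aspartate shuttle prominent there. A fall in transcripts for fatty acid oxidation is a known feature of hearts under pressure load.

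All values are log2 signals, so a difference of 1 is a doubling, and signals of different probe sets are not set against each other. A gene is said to rise or fall where its limma p, adjusted by the Benjamini-Hochberg method over all 26989 genes, was under 0.05. Of the 39 carriers, 28 had a mean signal at or above 5.70, the 95th percentile of the 23 background probe sets, and 11 lay below it. The probe set of Adam12, shared with another symbol and itself dim, read 4.46 to 4.80 over the wild type arrays and 4.25 to 4.40 over the knockout arrays. Cardiomyocyte markers were bright on every array, with a summed signal from 20.58 to 20.73. All 3 erythroid markers measured were below the background percentile, but 5 more on the list, the haemoglobin genes among them, were not measured. Array medians lay between 5.06 and 5.19.

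In knockout hearts 11 of the 39 carriers fell after TAC and 2 rose, while 26 did not pass the test. Those 11 are 28.2% of the carriers, against 5.68% of all genes, and the 2 that rose are 5.13%, against 7.08%. Among the genes at or above the background percentile, 11.0% fell, against 11 of the 28 carriers at that level (39.3%). In wild type hearts 0 of 39 carriers passed limma's test after TAC, against 0.178% of all genes (0.0667% higher and 0.111% lower), and 6 of 39 had an unadjusted p under 0.05, against 12.3% of all genes. Of the 39, 18 had such a p in the knockout, against 24.4% of all genes. The median carrier differed by -0.10 in the knockout, where the median of all genes was -0.03, and by -0.04 in the wild type, where it was 0.02. The knockout count rests in part on single arrays: it was 7 without knockout TAC replicate 2, with 0 of them higher, and 8 without knockout sham replicate 3. The count over all genes fell too, from 3444 to 2098 and 2206 (7.77% and 8.17%). The 13 genes that passed in the knockout were also the 13 that passed when TAC was averaged over both genotypes (against 13.6% of all genes; 11 lower, against 6.12% of all genes, and 2 higher, against 7.49%).

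**Figure D1:**
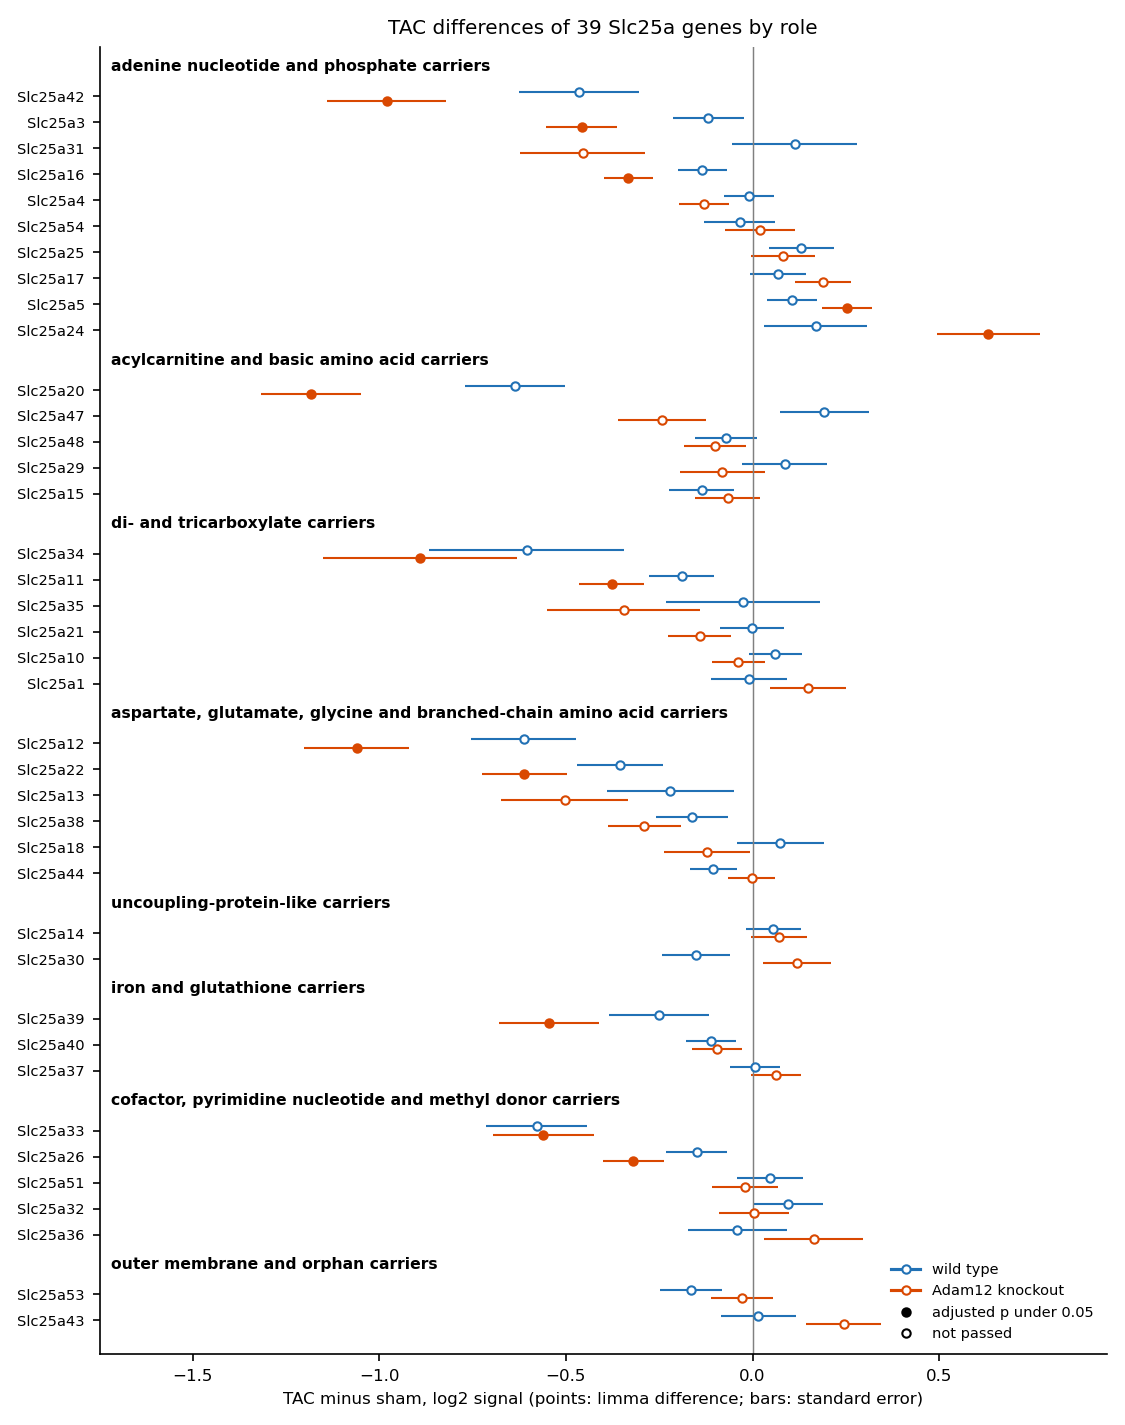
Difference between TAC and sham (x axis, log2 signal) for the 39 Slc25a genes (y axis), grouped by role, in wild type hearts (blue) and Adam12 knockout hearts (orange), with 3 arrays per group. Points are limma differences, bars are standard errors, and filled points passed an adjusted p under 0.05. The filled points are all orange, 11 to the left of 0 and 2 to the right, and Slc25a20 and Slc25a12 lie farthest left.

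Each of the 13 had a wild type difference of the same sign, and for 12 of them the knockout difference was the larger in size, Slc25a33 being the exception. Both comparisons share one estimate of the spread but no arrays. Whether the responses differed between the genotypes was tested separately and is given with the genotype comparisons. The arrays also differed within a group. In the wild type 11 carriers had TAC and sham groups that did not overlap (28.2%, against 16.1% of all genes), of which only Slc25a5 lay above sham. In the knockout there were 20 (51.3%, against 32.3%): 15 below sham, against 16.9% of all genes, and 5 above, against 15.4%. Wild type TAC replicates 1 to 3 had 13, 23 and 18 carriers below all 3 wild type sham arrays (26.6%, 26.3% and 23.8% of all genes) and 9, 3 and 8 above them (27.6%, 30.4% and 38.3%). Knockout TAC replicates 1 to 3 had 20, 22 and 25 below (37.1%, 31.7% and 32.5% of all genes) and 8, 6 and 9 above (25.3%, 30.9% and 27.6%). The knockout sham replicates had 7, 12 and 7 below (26.5%, 23.1% and 23.8%) and 15, 6 and 11 above (21.7%, 28.4% and 28.2%).

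Slc25a20, the carrier that brings long-chain acylcarnitines into the matrix in exchange for free carnitine, showed the deepest fall among the 39 Slc25a genes. Its signal was 14.34, 14.38 and 14.36 in wild type sham hearts, 13.92, 13.48 and 13.77 in wild type TAC hearts, 14.49, 14.20 and 14.56 in knockout sham hearts, and 13.38, 13.01 and 13.30 in knockout TAC hearts. The TAC groups lay below their sham groups in both genotypes without overlap, and the knockout TAC arrays lay below the wild type TAC arrays as well. The knockout fall was 1.18 ± 0.13 (fitted fall ± SE, limma adjusted p = 0.000446), a signal 0.44 times that of sham hearts. In the wild type the difference was -0.64 ± 0.13 and did not pass (limma adjusted p = 0.0874). In an extract of heart tissue, fewer cells of a type and less RNA per cell cannot be told apart. This applies to every difference given here.

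The other 4 measured genes listed here under acylcarnitine and basic amino acid carriers did not pass in the knockout, with differences from -0.24 to -0.07. These were Slc25a15, the ornithine carrier, and Slc25a29, Slc25a47 and Slc25a48, the last 3 being below the background percentile. The genes that work with Slc25a20 on the carnitine shuttle all fell in the knockout: 4 of the 4 measured, against 5.68% of all genes. Cpt2, which remakes acyl-CoA on the matrix side, read 13.99, 13.72 and 14.06 in knockout sham and 12.75, 12.94 and 12.90 in knockout TAC hearts, a fall of 1.06 ± 0.14 (limma adjusted p = 0.000678). Crat, carnitine acetyltransferase, fell by 0.88 ± 0.10, Slc22a5, the carnitine importer of the plasma membrane, by 0.64 ± 0.15, and Cpt1b, the muscle form of the outer membrane enzyme that makes acylcarnitine, by 0.49 ± 0.08 (limma adjusted p = 0.000539, 0.0168 and 0.0027). In the wild type 0 of these 4 genes passed limma's test, and 3 had an unadjusted p under 0.05, against 12.3% of all genes. The wild type differences were -0.57 for Slc22a5, -0.35 for Cpt2, -0.33 for Crat and -0.16 for Cpt1b.

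Slc25a12 and Slc25a13 are the calcium-regulated carriers that exchange matrix aspartate for cytosolic glutamate, and Slc25a11 exchanges malate for 2-oxoglutarate; together they form the membrane steps of the malate-aspartate shuttle, which moves reducing equivalents of NADH into the matrix. Slc25a12 read 14.52, 14.37 and 14.20 in wild type sham, 13.92, 13.70 and 13.63 in wild type TAC, 14.67, 14.31 and 14.36 in knockout sham and 13.55, 13.12 and 13.49 in knockout TAC hearts. As for Slc25a20, neither genotype's TAC group overlapped with its sham group, and every knockout TAC array was below every wild type TAC array. It fell by 1.06 ± 0.14 in the knockout (limma adjusted p = 0.000753), and its wild type difference of -0.61 ± 0.14 did not pass (limma adjusted p = 0.108).

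Slc25a13, the paralogue, read 12.92, 13.21 and 13.28 in wild type sham, 13.13, 12.66 and 12.95 in wild type TAC, 13.07, 12.73 and 13.05 in knockout sham and 12.30, 12.25 and 12.79 in knockout TAC hearts. Its groups overlapped in both genotypes. The knockout difference of -0.50 ± 0.17 did not pass (limma adjusted p = 0.0789), but without knockout TAC replicate 3, the highest of that group, it was -0.68 and passed (limma adjusted p = 0.0213), as it did once dim genes were left out (limma adjusted p = 0.0421). Slc25a11 was tight in sham hearts, at 15.45, 15.49 and 15.49 in the wild type and 15.47, 15.41 and 15.47 in the knockout. After TAC it read 15.34, 15.20 and 15.32 in the wild type and 15.13, 14.88 and 15.21 in the knockout, below sham on every array. Its knockout fall was 0.38 ± 0.09 (limma adjusted p = 0.0142, and 0.0539 without knockout sham replicate 3). The soluble enzymes of the shuttle fell alongside in the knockout, 3 of the 3 measured, against 5.68% of all genes. Mdh2 fell by 0.50, Got2 by 0.33 and Mdh1 by 0.25 (limma adjusted p = 0.00819, 0.00903 and 0.0312). In the wild type 0 of 3 passed limma's test and 1 had an unadjusted p under 0.05, against 12.3% of all genes.

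Of the 10 measured carriers for adenine nucleotides, phosphate and coenzyme A, 3 fell and 2 rose in the knockout. Slc25a42, which carries coenzyme A into mitochondria, was 8.46, 8.35 and 8.44 in wild type sham, 8.35, 7.54 and 7.96 in wild type TAC, 8.61, 8.30 and 8.41 in knockout sham and 7.44, 7.49 and 7.44 in knockout TAC hearts. Wild type TAC replicate 1 was at the low end of the sham range, while the knockout TAC arrays were close together and below every other array. The knockout fall was 0.98 ± 0.16 (limma adjusted p = 0.00218), to 0.507 times the sham signal, and the wild type difference was -0.47 ± 0.16 (limma adjusted p = 0.258). Slc25a16, linked to coenzyme A by its yeast relative, fell by 0.33 ± 0.07 in the knockout (limma adjusted p = 0.00668), from 8.98, 8.86 and 9.03 to 8.57, 8.66 and 8.65. In the wild type Slc25a16 read 8.96, 8.95 and 8.92 after sham and 8.83, 8.81 and 8.79 after TAC, without overlap, a difference of -0.13 ± 0.07 that did not pass (limma adjusted p = 0.436). Slc25a17, the peroxisomal carrier of coenzyme A and related cofactors, went the other way in value, with 9.81, 9.92 and 10.01 in knockout TAC hearts above 9.72, 9.65 and 9.80 in knockout sham hearts, a difference of 0.19 that did not pass (limma adjusted p = 0.141). Its wild type arrays read 9.69, 9.60 and 9.57 after sham and 9.74, 9.66 and 9.66 after TAC.

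Slc25a3 carries the phosphate that ATP synthase uses. It read 11.25, 11.19 and 11.25 in wild type sham, 11.15, 11.00 and 11.18 in wild type TAC, 11.39, 11.38 and 11.51 in knockout sham and 11.02, 10.76 and 11.12 in knockout TAC hearts. The knockout sham arrays were the highest of all 12, and the knockout TAC group lay below its sham group by more than its own spread. It fell by 0.46 ± 0.09 in the knockout (limma adjusted p = 0.00836), against a wild type difference of -0.12 ± 0.09 (limma adjusted p = 0.669).

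Slc25a4 and Slc25a5 are the ADP/ATP exchangers, the former the main form of heart and skeletal muscle and the latter the form of most other tissues and of dividing cells. Slc25a4 was 15.83, 15.82 and 15.78 in wild type sham, 15.82, 15.81 and 15.76 in wild type TAC, 15.83, 15.86 and 15.98 in knockout sham and 15.70, 15.74 and 15.84 in knockout TAC hearts. Its groups overlapped in both genotypes, and the differences were -0.01 ± 0.07 and -0.13 ± 0.07 (limma adjusted p = 0.978 and 0.277). Slc25a5 was 15.90, 15.96 and 15.95 in wild type sham, 16.12, 16.05 and 15.96 in wild type TAC, 15.98, 15.88 and 15.90 in knockout sham and 16.20, 16.22 and 16.11 in knockout TAC hearts. It rose by 0.25 ± 0.07 in the knockout (limma adjusted p = 0.0305), a signal 1.19 times that of sham, and the wild type difference was 0.11 (limma adjusted p = 0.57). The knockout rise no longer passed when knockout sham replicate 2 or 3, or TAC replicate 1 or 2, was left out (limma adjusted p = 0.0968, 0.101, 0.0888 and 0.111), nor when each array was centred on its median (limma adjusted p = 0.0868).

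Slc25a24, a calcium-activated carrier that exchanges ATP-Mg for phosphate and so alters the matrix pool of adenine nucleotides, showed the largest rise of the family. Its signal was 8.32, 8.46 and 8.00 in wild type sham, 8.30, 8.65 and 8.34 in wild type TAC, 8.19, 8.11 and 8.03 in knockout sham and 8.85, 8.86 and 8.52 in knockout TAC hearts. The wild type groups overlapped and the knockout groups did not. It rose by 0.63 ± 0.14 in the knockout (limma adjusted p = 0.0108, and 0.0523 without knockout TAC replicate 2), to 1.55 times the sham signal. Fibroblast and macrophage markers rose in the same arrays: 4 of 5 and 3 of 3 measured passed in the knockout and 0 fell. Of all genes 7.08% rose and 5.68% fell there. Summed fibroblast signals were 16.47 to 16.71 in knockout sham and 17.12 to 17.48 in knockout TAC hearts, and macrophage signals were 8.44 to 8.86 and 9.52 to 10.28. Of the endothelial markers 2 of 6 rose in the knockout and 0 fell, with sums of 15.68 to 15.77 after sham and 15.92 to 16.19 after TAC. In the wild type the fibroblast sums were 16.61 to 16.80 after sham and 16.45 to 17.15 after TAC, the macrophage sums were 8.43 to 8.70 and 9.13 to 9.49, and the endothelial sums were 15.66 to 15.69 and 15.87 to 16.19. Of the cardiomyocyte markers 3 of 7 fell in the knockout and 0 rose, with a summed signal of 20.72 to 20.73 after sham and 20.58 to 20.65 after TAC. The wild type sums were 20.67 to 20.71 after sham and 20.62 to 20.68 after TAC. This sum follows the brightest probe sets, Tnnt2 and Myh6, while the knockout differences of single markers ran from -0.58 to 0.00. Atrial sums spread widely within each group, and 0 of the 5 atrial markers passed in the knockout, against 12.8% of all genes. The atrial sums ran from 12.68 to 16.06 in wild type sham and from 12.12 to 15.52 in wild type TAC hearts. In the knockout they ran from 13.65 to 17.16 after sham and from 12.49 to 15.72 after TAC. After TAC in the wild type 0 markers of these cell types passed limma's test, against 0.178% of all genes. The part of these shifts and of the atrial spread in the carrier results was not tested. The remaining 3 genes of this role, Slc25a25, Slc25a31 and Slc25a54, were below the background percentile, and their knockout differences of 0.08, -0.46 and 0.02 did not pass.

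**Figure D2:**
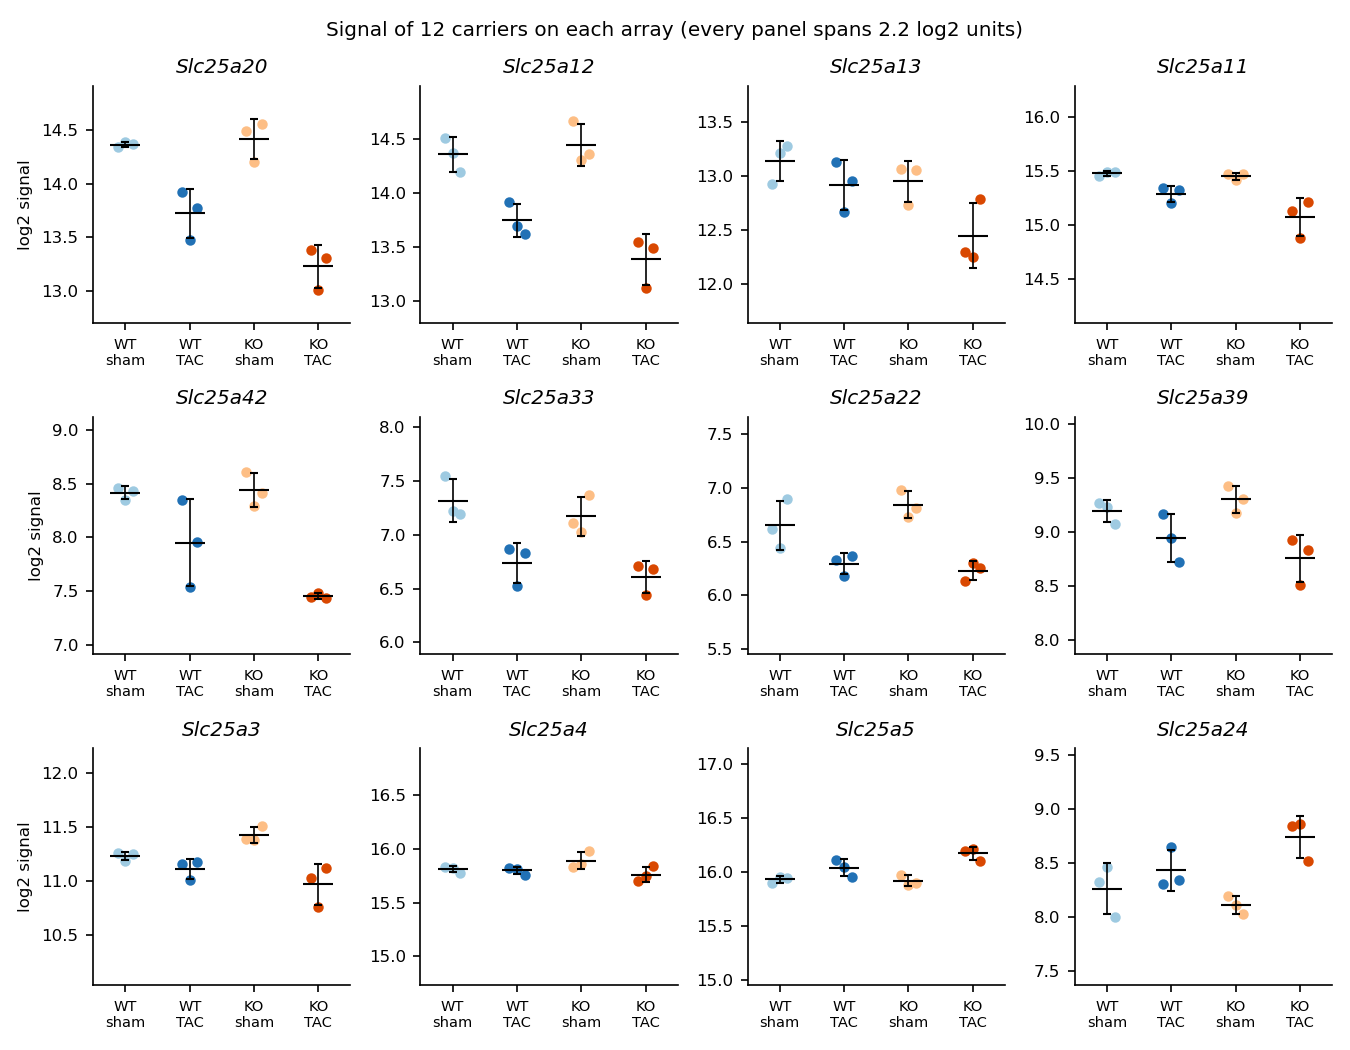
Log2 signal (y axis) of 12 carriers on each array in the 4 groups (x axis), 1 coloured point per array, with the mean (dash) and SD (bar) of 3 arrays in black. Every panel spans the same 2.2 log2 units, so that the knockout fall of 1.18 for Slc25a20 can be set by eye beside the difference of -0.13 for Slc25a4 and the rise of 0.63 for Slc25a24.

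Of the 6 di- and tricarboxylate carriers, Slc25a34 fell in the knockout besides Slc25a11 (33.3%, against 5.68% of all genes). Slc25a34 has no settled substrate and was read at 9.43, 9.09 and 9.54 in wild type sham, 9.47, 8.34 and 8.42 in wild type TAC, 9.19, 9.22 and 9.73 in knockout sham and 8.46, 8.52 and 8.49 in knockout TAC hearts. Wild type TAC replicate 1 stayed at the sham level and the other two were about 1 unit lower, while the knockout TAC arrays agreed within 0.1. The knockout fall of 0.89 ± 0.26 was close to the threshold (limma adjusted p = 0.045). It no longer passed when any 1 array was left out of the wild type sham, knockout sham or knockout TAC groups, with an adjusted p of up to 0.167, reached without knockout sham replicate 3. The other 4, which include the citrate carrier Slc25a1 and the dicarboxylate carrier Slc25a10, differed by -0.35 to 0.15 and did not pass.

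Among the 6 carriers of aspartate, glutamate, glycine and branched-chain amino acids, Slc25a12 and Slc25a22 fell in the knockout (33.3%, against 5.68% of all genes). The remaining 4 had differences from -0.50 to -0.00. Slc25a22, which brings glutamate in together with a proton, was 6.62, 6.44 and 6.89 in wild type sham, 6.33, 6.18 and 6.37 in wild type TAC, 6.98, 6.73 and 6.81 in knockout sham and 6.13, 6.30 and 6.25 in knockout TAC hearts. Both TAC groups were below their sham groups. It fell by 0.61 ± 0.11 in the knockout (limma adjusted p = 0.00482), and the wild type difference was -0.36 ± 0.11 (limma adjusted p = 0.229). Slc25a38, the glycine carrier that serves heme synthesis, read 6.45, 6.44 and 6.56 in knockout sham and 6.28, 6.02 and 6.29 in knockout TAC hearts, a difference of -0.29 that did not pass (limma adjusted p = 0.078). The carrier of branched-chain amino acids, Slc25a44, differed by -0.00 in the knockout and by -0.11 in the wild type.

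Slc25a33 carries pyrimidine nucleotides, the precursors of mitochondrial DNA and RNA, and it was the carrier with the most alike responses in both genotypes among the 13. It read 7.54, 7.22 and 7.19 in wild type sham, 6.87, 6.52 and 6.83 in wild type TAC, 7.11, 7.02 and 7.37 in knockout sham and 6.71, 6.44 and 6.68 in knockout TAC hearts. The TAC arrays lay below the sham arrays of the same genotype in each case. The knockout fall was 0.56 ± 0.13 (limma adjusted p = 0.0179, and 0.0807 without knockout sham replicate 3 or 0.0831 without knockout TAC replicate 2), and the wild type difference of -0.58 ± 0.13 did not pass (limma adjusted p = 0.113). Slc25a26, which imports the methyl donor S-adenosylmethionine, fell by 0.32 ± 0.08 in the knockout (limma adjusted p = 0.0236), from 7.47, 7.49 and 7.36 to 7.10, 6.98 and 7.28. Its wild type arrays read 7.37, 7.39 and 7.43 after sham and 7.30, 7.19 and 7.25 after TAC, also without overlap, a difference of -0.15 ± 0.08 (limma adjusted p = 0.488). The knockout call was lost when knockout sham replicate 1 or 2, or TAC replicate 1 or 2 of the same genotype, was left out (limma adjusted p = 0.0751, 0.0797, 0.0682 and 0.103). The other 3 of this group, the NAD carrier Slc25a51, the folate carrier Slc25a32 and the second pyrimidine nucleotide carrier Slc25a36, differed by -0.02, 0.00 and 0.16 in the knockout.

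Slc25a39, a carrier that brings glutathione into mitochondria, read 9.27, 9.23 and 9.08 in wild type sham, 9.17, 8.94 and 8.72 in wild type TAC, 9.43, 9.18 and 9.31 in knockout sham and 8.93, 8.51 and 8.84 in knockout TAC hearts. The wild type groups overlapped and the knockout groups did not. It fell by 0.55 ± 0.13 in the knockout (limma adjusted p = 0.0192), and the call was lost when knockout sham replicate 1 or 3, or TAC replicate 2 of that genotype, was left out (limma adjusted p = 0.0746, 0.0618 and 0.0831). Its paralogue Slc25a40 differed by -0.10 and the iron carrier Slc25a37 by 0.06 ± 0.07, neither passing (limma adjusted p = 0.438 and 0.644). Slc25a37, which erythroid cells express strongly, stayed between 7.28 and 7.52 on all 12 arrays. It read 7.43, 7.42 and 7.38 in wild type sham and 7.52, 7.36 and 7.38 in wild type TAC hearts. Its knockout values were 7.40, 7.28 and 7.32 after sham and 7.40, 7.43 and 7.36 after TAC.

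The uncoupling-protein-like carriers Slc25a14 and Slc25a30 did not pass in any comparison, and neither did the orphan carriers Slc25a43 and Slc25a53, for which the differences in the knockout were 0.24 and -0.03. Slc25a30 was 7.32, 7.35 and 7.07 in wild type TAC hearts and 7.64, 7.54 and 7.37 in knockout TAC hearts, against 7.36 to 7.43 over the 6 sham arrays. The uncoupling proteins belong to the same protein family under another name. Ucp3, the form of muscle, read 8.85, 7.44 and 9.84 in wild type sham, 7.15, 6.34 and 6.92 in wild type TAC, 7.79, 7.17 and 7.63 in knockout sham and 5.70, 6.44 and 6.54 in knockout TAC hearts. The wild type sham arrays alone spanned more than 2 log2 units, yet in both genotypes every TAC array was below every sham array. Its differences of -1.91 ± 0.48 and -1.30 ± 0.48 did not pass within a genotype (limma adjusted p = 0.135 and 0.11), and averaged over genotypes Ucp3 fell by 1.61 ± 0.34 (limma adjusted p = 0.00877). Mtch2, an outer membrane relative of the carriers, fell by 0.35 in the knockout (limma adjusted p = 0.0155), and Ucp1, the form of brown fat, was below the background percentile at 3.35 to 3.82.

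Paralogues that carry the same solutes were then set beside each other by their difference within each array, a quantity that a shift common to a whole array leaves untouched. The zero of that difference has no meaning between probe sets, so only its change after TAC is given. Each pair holds a carrier that passed above, and the changes are a description with no test. Slc25a5 minus Slc25a4 was 0.13 ± 0.05, 0.24 ± 0.05, 0.03 ± 0.11 and 0.41 ± 0.13 in wild type sham, wild type TAC, knockout sham and knockout TAC hearts (SD, n = 3 each). It moved by 0.11 in the wild type and 0.38 in the knockout, with no overlap of sham and TAC arrays in either. Slc25a13 minus Slc25a12 moved by 0.39 and 0.56, and Slc25a33 minus Slc25a36 by -0.54 and -0.72. For these 2 pairs the wild type groups overlapped and the knockout groups did not. Slc25a22 and its paralogue Slc25a18 are not set side by side, since Slc25a18 was below the background percentile.

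**Figure D3:**
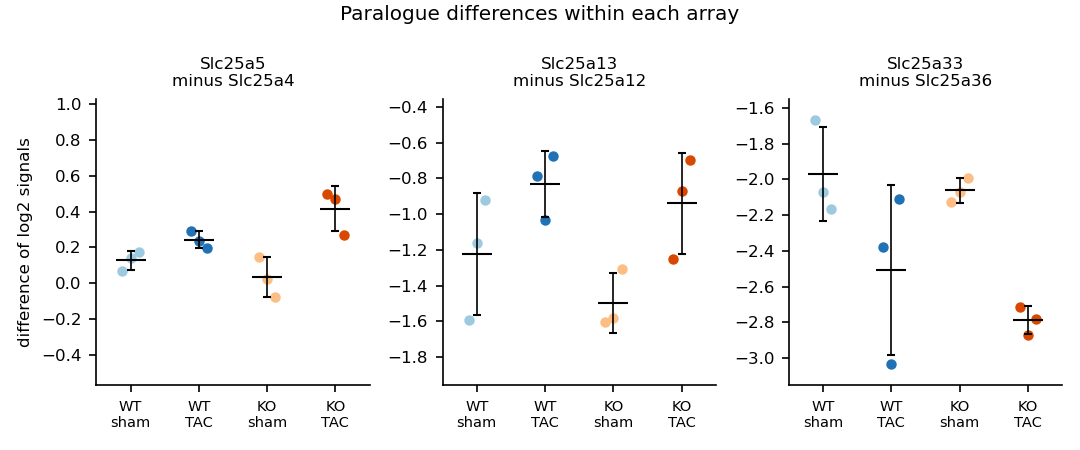
Difference of log2 signals between the members of 3 paralogue pairs (y axis), computed within each array, in the 4 groups (x axis). Points are arrays, and black dashes and bars are means and SD of 3 arrays. From left to right the knockout change between sham and TAC was 0.38, 0.56 and -0.72; the position of a panel on its axis does not compare the levels of the genes.

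Genotype alone was compared after each operation. In sham hearts 0 of 39 carriers passed limma's test, as did 0.0% of all genes, and 0 carriers had an unadjusted p under 0.05, against 5.53% of all genes. The groups did not overlap for 3 carriers that were higher in the knockout, against 6.43% of all genes, and for 1 that was lower, against 5.9%. These were Slc25a3, with a difference of 0.20 ± 0.09 (limma adjusted p = 0.899), Slc25a10 and Slc25a4 at 0.10 and 0.08, and Slc25a53 at -0.14. Slc25a53, an orphan below the background percentile, read 5.07, 5.06 and 5.23 in wild type sham, 4.89, 4.89 and 5.09 in wild type TAC, 5.02, 4.95 and 4.95 in knockout sham and 5.02, 4.98 and 4.84 in knockout TAC hearts. The largest sham difference, 0.30 ± 0.17, was that of Slc25a31, the ADP/ATP exchanger of the testis, also below the background percentile, whose groups overlapped (limma adjusted p = 0.916). Slc25a31 read 4.30, 4.44 and 4.47 in wild type sham, 4.51, 4.20 and 4.83 in wild type TAC, 4.71, 4.40 and 4.98 in knockout sham and 4.38, 4.25 and 4.10 in knockout TAC hearts. After TAC again 0 of 39 passed limma's test, against 0.0111% of all genes, and 10 of 39 carriers had an unadjusted p under 0.05, against 14.6% of all genes. The count over all genes varied with the setting: it was 3 here, 774 without wild type TAC replicate 2, where 2 of the carriers passed, and 648 of 12392 once dim genes were left out, where 0 of 28 carriers did. The groups did not overlap for 8 carriers (20.5%, against 19.2% of all genes), 5 lower in the knockout, against 11.3% of all genes, and 3 higher, against 7.91%. Among these, Slc25a20 was lower in the knockout by a difference of -0.49 ± 0.13 (limma adjusted p = 0.113) and Slc25a42 by one of -0.49 ± 0.16 (limma adjusted p = 0.175). Those 2 passed without wild type TAC replicate 2, the wild type TAC array with the lowest value of both genes, where the differences were -0.62 and -0.70 (limma adjusted p = 0.0356 and 0.0171). Slc25a47, a carrier of liver that is below the background percentile here, read 5.82, 5.59 and 6.00 in wild type TAC and 5.44, 5.49 and 5.36 in knockout TAC hearts, after 5.48, 5.55 and 5.80 and 5.52, 5.77 and 5.73 in the sham groups. Its difference after TAC was -0.37 ± 0.12 (limma adjusted p = 0.17), while Slc25a30 differed by 0.27 ± 0.09 (limma adjusted p = 0.195) and Slc25a17 by 0.22 (limma adjusted p = 0.191).

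The interaction asks whether the TAC response itself differs between the genotypes. By limma 0 of 39 carriers passed, as did 0.0% of all genes (0.559% without wild type TAC replicate 2), and 7 carriers had an unadjusted p under 0.05, against 11.0% of all genes. The largest values were -0.57 for Slc25a31, -0.55 ± 0.19 for Slc25a20, -0.52 for Slc25a42, 0.46 for Slc25a24, -0.45 for Slc25a12, -0.43 for Slc25a47 and -0.34 ± 0.13 for Slc25a3, with adjusted p from 0.333 to 0.446. For Slc25a33 it was 0.02. The larger knockout falls listed above were therefore not shown to differ from those of the wild type. Averaged over the operations, genotype gave 0 of 39 carriers by limma, against 0.0% of all genes, and 3 with an unadjusted p under 0.05, against 10.1%. The smallest p belonged to Slc25a17, at 0.16 ± 0.05 (limma adjusted p = 0.331), followed by Slc25a13 at -0.33 ± 0.12 (limma adjusted p = 0.375) and Slc25a20 at -0.22 ± 0.09 (limma adjusted p = 0.469).

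Genes that serve the carriers or control mitochondrial genes were followed in the same fit, from lists that were not picked by direction but were set with earlier results of these arrays known. Of 8 measured regulators, 6 fell in the knockout and 0 rose, where 5.68% of all genes fell and 7.08% rose. Ppargc1a, the coactivator that raises the transcription of many mitochondrial genes, read 15.27, 15.18 and 15.16 in knockout sham and 14.03, 13.58 and 14.41 in knockout TAC hearts, a fall of 1.20 ± 0.18 (limma adjusted p = 0.00129). In the wild type it read 15.08, 15.09 and 14.94 after sham and 14.47, 14.11 and 14.54 after TAC, a difference of -0.66 that did not pass (limma adjusted p = 0.156). Ppara, the nuclear receptor for fatty acids, fell by 0.88, Perm1, a muscle partner of these factors, by 0.70, the estrogen-related receptors Esrrg and Esrrb by 0.60 and 0.59, and Gabpa, an ETS factor of mitochondrial genes, by 0.36 (limma adjusted p = 0.00645, 0.0125, 0.00172, 0.00686 and 0.0135). Wild type means after sham and TAC were 13.42 and 13.42 for Perm1, 6.16 and 6.15 for Esrrb and 9.76 and 9.68 for Ppara. The wild type TAC arrays of Ppargc1a, Esrrg and Gabpa lay below sham without overlap. In sham hearts 5 regulators were higher in the knockout without overlap, against 6.43% of all genes. Ppargc1a, Ppara, Perm1 and Esrrb were among them. Of the 8, 0 passed limma's test there. What the sham levels contribute to the knockout falls was not tested.

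Of the 8 outer membrane and creatine kinase genes, 3 fell and 1 rose in the knockout, against the same 5.68% and 7.08% of all genes. Ckmt2, the mitochondrial creatine kinase that takes ATP delivered by the ADP/ATP exchangers, fell by 0.39, and the outer membrane channels Vdac1 and Vdac3 by 0.39 and 0.24 (limma adjusted p = 0.0121, 0.0102 and 0.0338). Tspo, an outer membrane protein abundant in macrophages, was 6.79, 6.28 and 6.41 in knockout sham and 7.77, 7.65 and 7.44 in knockout TAC hearts, a rise of 1.13 ± 0.19 (limma adjusted p = 0.00289), beside the macrophage sums given above. Of the 10 measured inner membrane carriers outside the family, Abcb8 and Letm1 fell by 0.66 and 0.28 (limma adjusted p = 0.00181 and 0.0293) and 8 did not pass. Of 11 measured genes that import carrier proteins into the membrane, 0 passed limma's test in the knockout, against 12.8% of all genes. Before adjustment 3 were below 0.05, against 24.4% of all genes, and the differences ran from -0.33 to 0.11. For TAC in the wild type 0 genes of these lists passed limma's test. There 12.3% of all genes had an unadjusted p under 0.05. Such a p was seen for 3 of 8 regulators and 3 of 8 outer membrane and creatine kinase genes. It was also seen for 1 of 10 inner membrane carriers and 0 of 11 import genes.

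**Figure D4:**
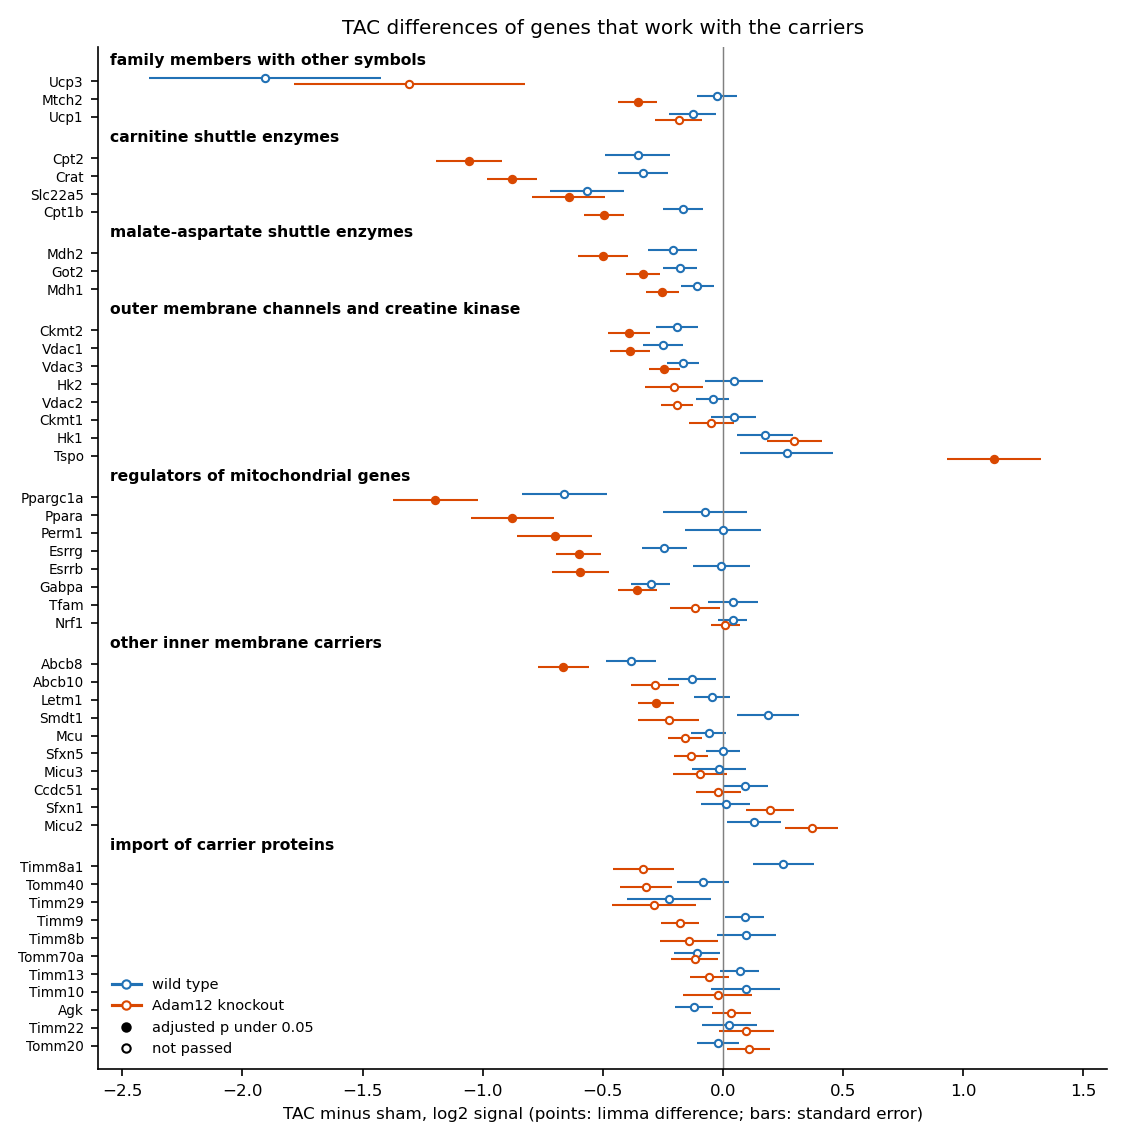
Difference between TAC and sham (x axis, log2 signal) for genes that work with the carriers (y axis), by list, in wild type (blue) and Adam12 knockout hearts (orange), 3 arrays per group. Points are limma differences, bars are standard errors, and filled points passed an adjusted p under 0.05. All 4 measured carnitine shuttle genes and 6 of 8 regulators are filled on the left in the knockout, where 5.68% of all genes fell. Of the 11 import genes 0 are filled, where 12.8% of all genes passed in the knockout.

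The start-site regions of some of the carriers that moved are shown so that they can be read beside the regulators named above. RefSeq windows of GRCm38.p6, from 250 bases before the start site to 50 after it, were found for 33 of the 39 carriers (42 windows). The 250 bases before the start site are given for the 4 carriers with the largest falls, for Slc25a3 and for the 2 that rose, 5′ to 3′ on the strand of the gene, with matches to the motifs named below in capitals. They lie at chr9:108661886-108662135 (+) for Slc25a20, chr2:71367756-71368005 (-) for Slc25a12, chr8:70212282-70212531 (-) for Slc25a42, chr4:141623835-141624084 (-) for Slc25a34, chr10:91123968-91124217 (-) for Slc25a3, chr3:109122899-109123148 (+) for Slc25a24 and chrX:36795347-36795596 (+) for Slc25a5.
Slc25a20: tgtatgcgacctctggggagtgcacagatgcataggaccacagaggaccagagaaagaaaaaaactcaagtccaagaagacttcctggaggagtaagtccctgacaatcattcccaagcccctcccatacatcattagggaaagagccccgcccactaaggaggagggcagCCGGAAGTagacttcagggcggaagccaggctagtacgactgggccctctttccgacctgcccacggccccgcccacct
Slc25a12: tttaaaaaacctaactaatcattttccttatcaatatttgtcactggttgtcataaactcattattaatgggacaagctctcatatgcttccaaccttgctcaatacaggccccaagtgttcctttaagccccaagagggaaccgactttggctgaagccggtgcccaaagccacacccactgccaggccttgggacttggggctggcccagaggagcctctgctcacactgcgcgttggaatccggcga
Slc25a42: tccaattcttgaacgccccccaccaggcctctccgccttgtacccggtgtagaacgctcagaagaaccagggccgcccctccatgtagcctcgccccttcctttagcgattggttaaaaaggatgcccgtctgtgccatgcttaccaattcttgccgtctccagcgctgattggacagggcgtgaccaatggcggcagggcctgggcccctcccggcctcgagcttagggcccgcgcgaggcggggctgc
Slc25a34: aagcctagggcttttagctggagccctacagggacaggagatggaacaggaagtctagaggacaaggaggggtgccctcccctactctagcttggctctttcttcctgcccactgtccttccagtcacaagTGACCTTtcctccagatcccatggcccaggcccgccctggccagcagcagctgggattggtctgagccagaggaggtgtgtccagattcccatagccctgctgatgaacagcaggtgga
Slc25a3: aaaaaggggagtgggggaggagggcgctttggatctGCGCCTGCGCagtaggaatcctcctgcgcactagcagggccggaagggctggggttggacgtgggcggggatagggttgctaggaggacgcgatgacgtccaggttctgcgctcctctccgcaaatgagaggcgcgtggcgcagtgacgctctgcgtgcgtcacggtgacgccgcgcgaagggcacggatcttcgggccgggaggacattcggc
Slc25a24: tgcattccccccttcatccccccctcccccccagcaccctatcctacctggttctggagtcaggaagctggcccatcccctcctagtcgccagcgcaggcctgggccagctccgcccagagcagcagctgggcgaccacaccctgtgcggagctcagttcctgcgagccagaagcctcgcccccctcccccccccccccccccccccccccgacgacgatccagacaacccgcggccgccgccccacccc
Slc25a5: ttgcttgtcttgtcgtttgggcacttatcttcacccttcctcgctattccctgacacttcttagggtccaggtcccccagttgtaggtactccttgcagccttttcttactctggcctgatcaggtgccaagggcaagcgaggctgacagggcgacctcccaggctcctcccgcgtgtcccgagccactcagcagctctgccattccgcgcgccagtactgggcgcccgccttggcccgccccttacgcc

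Across both strands, 9 motifs were searched in the 300-base windows. Slc25a20 holds 1 match to the GABP motif ACTTCCGG, on the reverse strand, at position -79 from the start site. That motif was in 2.38% of the carrier windows and in 3.89% of all 32851 windows. Slc25a34 holds the nuclear receptor half-site AAGGTCA on the reverse strand at position -119 (2.38% of carrier windows, 4.72% of all). In the Slc25a3 window a match to the NRF1 motif begins at position -214 on the forward strand (4.76% of carrier windows, 4.6% of all). The windows of Slc25a12, Slc25a42, Slc25a24 and Slc25a5 hold 0 matches in the bases shown. The estrogen-related receptor motif TNAAGGTCA, which contains the half-site, was in 0 carrier windows and 1.28% of all windows, the PPAR motif in 0 and 0.0396%, and the YY1 motif in 0 and 0.633%. The E-box CACGTG was in 19.0% of the carrier windows against 7.15% of all, the SP1 motif GGGGCGGGG in 14.3% against 11.4% and the CREB motif TGACGTCA in 4.76% against 1.79%. The E-box windows belong to Slc25a1, Slc25a13, Slc25a14, Slc25a15, Slc25a31, Slc25a33 and Slc25a36, of which Slc25a33 is the 1 that fell after TAC. The SP1 windows belong to Slc25a10, Slc25a22, Slc25a25, Slc25a31, Slc25a39 and Slc25a40, of which Slc25a22 and Slc25a39 fell. Those with the CREB motif belong to Slc25a25 and Slc25a36, which did not pass. A match describes these letters only and says nothing about binding.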

How the data were processed

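Total RNA (250 ng per heart) was biotin-labelled and hybridized to Clariom D arrays, per the labels' protocols. The deposited table holds log2 signals of 65527 probe sets, made by the authors with Affymetrix Expression Console, per the submitters' processing notes; its version, normalization and summarization method are not given in the sources used here. The log2 scale was settled from the values (1.27 to 19.93). The genome build of the array design is not given either.

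After 6732 control probe sets were left out, 27268 of 58795 carried 1 gene symbol, 1932 several and 29595 none in the platform annotation. The brightest probe set with 1 symbol stood for each of 26989 genes, and 757 symbols were updated through their Entrez ID. No filter on dim genes was used. limma 3.58.1 in R 4.3.3 fitted 1 mean per group over 12 arrays (lmFit, eBayes, 2-sided, prior df 3.29, residual df 8). P-values were Benjamini-Hochberg adjusted over all genes and called under 0.05. Errors of differences are limma standard errors, and those of levels are SD over 3 arrays. The number of arrays limits the precision. The replicates are labelled biological. The procedure was tested on simulated data.

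By the rule for named genes, values were given in every array for the carriers that passed in a comparison (the 12 with the smallest p) and for Slc25a3, Slc25a4, Slc25a5, Slc25a11, Slc25a12, Slc25a13, Slc25a20 and Slc25a37, and the 3 carriers with the smallest p were named where fewer than 3 passed. Of each further list up to 4 genes with the smallest p were named. Array values of Slc25a30, Slc25a38 and Ucp3, and the regulators Gabpa and Perm1, were added after their values were seen. The carriers, lists, pairs and motifs were chosen with earlier results of these data known, so no p is given for a list or a pair of paralogues. Alternatives covered normalization, a filter on dim genes, variance models, array weights, probe set choice, the groups in the fit, a replicate block and leaving out each array.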

Additional observations from a re-analysis of the deposited data

How the results depend on the processing

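No difference that passed changed its sign under any of the settings tried. Of the 13 knockout calls, Slc25a20, Slc25a12, Slc25a42, Slc25a22, Slc25a16 and Slc25a3 kept theirs in all 21 alternatives. Slc25a34 lost its call in 11, Slc25a5 in 7, Slc25a26 in 6, Slc25a39 in 3, Slc25a33 and Slc25a11 in 2 each and Slc25a24 in 1. The count of 13 ran from 7 to 13 when single arrays were left out. Averaged over genotypes the count ran from 11 to 14 without single arrays, and Slc25a5 lost its call in 10 of 20 alternatives.

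In the wild type the count of 0 became 1 without dim genes (Slc25a20; 1.97% of all genes then passed) and 3 with array weights (Slc25a20, Slc25a12 and Slc25a33; 1.3% of all genes); without single arrays it stayed at 0. The wild type median of -0.04 was -0.082 with median centring, -0.13 without dim genes, -0.079 with array weights and -0.088 to -0.041 without single arrays. The knockout median of -0.10 was -0.21 without dim genes and -0.16 to -0.10 without single arrays, and that averaged over genotypes (-0.07) was -0.14 without dim genes. Dropping dim genes leaves 28 carriers. For genotype after TAC the count ran from 0 to 2 and the median from -0.085 to -0.027 without single arrays, and the interaction median from -0.13 to -0.056. The cause of these shifts was not tested.

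The numbers of the replicates were not established as pairs: deviations from the group means correlated with a median r of 0.12 over 18 same-numbered pairs of arrays (10 above 0.1) and of -0.06 over 36 others, and 9 of 12 arrays correlated best with their own number. With a replicate block 3 carriers passed for TAC in the wild type (Slc25a20, Slc25a12 and Slc25a33), 14 in the knockout (Slc25a13 among them, limma adjusted p = 0.0483) and 1 for genotype after TAC (Slc25a20, limma adjusted p = 0.0394). Over all genes the block gave 0.986%, 14.3% and 2.2%, against 0.178%, 12.8% and 0.0111% without it. Low signal over background limits what can be read from the 11 carriers below the background percentile.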
